A study of Homo sapiens with 6 samples.

Results

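Proteoglycans are proteins that carry long sulfated sugar chains, the glycosaminoglycans, and they were followed here as the transcripts of 10 core protein genes in the human colorectal line LS174T. The genes were taken by name from the 58735 named genes of the count table: BGN and VCAN of the extracellular matrix, HSPG2 and AGRN of basement membranes, the syndecans SDC1, SDC2 and SDC4, and the glypicans GPC1, GPC3 and GPC4. All 10 were found, and 9 of them were among the 15351 genes with enough counts to test. LS174T is a colon adenocarcinoma line that makes mucus, as goblet cells do. Poly(A) RNA was sequenced from 3 libraries labelled FXYD3 knockout and from 3 wild-type libraries of the same line. FXYD3 is a small membrane protein that regulates the sodium pump. The labels do not say how the gene was edited or how many clones or cultures stand behind each group, so the spread between libraries may be technical.

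A core protein receives its chains in the Golgi, where enzymes build a short linkage sugar on serines and extend it into heparan sulfate, chondroitin sulfate or dermatan sulfate. Syndecans span the plasma membrane and glypicans are tied to it by a lipid anchor, and both kinds present growth factors and Wnt proteins through heparan sulfate. Perlecan, the product of HSPG2, and agrin sit in basement membranes. Versican, the product of VCAN, is a large chondroitin sulfate proteoglycan that binds hyaluronan, and biglycan, the product of BGN, is a small leucine-rich proteoglycan of connective tissue. Intestinal epithelium is best known for SDC1 at its basolateral surface, while biglycan and versican are known mainly from stromal cells.

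Named genes received 15417232 to 19453217 counts in the knockout-labelled libraries and 16507805 to 17596549 in the wild-type ones. FXYD3 itself had 79, 131 and 85 counts in knockout-labelled libraries 1, 2 and 3, against 54, 91 and 55 in wild-type libraries 1, 2 and 3. The targeted transcript was therefore no lower under the knockout label (log2 fold change 0.54, SE 0.20, edgeR adjusted p = 0.0522), and all directions given here are between labels. Counts summed over a gene do not show a small edit in it. All 9 intestinal epithelial markers examined were detected, with 11400 to 12200 CPM (counts scaled to library size after TMM normalization) summed in the knockout-labelled libraries and 10600 to 12100 CPM in wild type; 2 of the 9 were called lower. Of the 8 goblet cell markers 7 could be tested, and 6 were called lower and 0 higher. Of all tested genes 12.4% were called lower and 12.0% higher. The goblet sums were 518 to 574 CPM in the knockout-labelled and 712 to 887 CPM in the wild-type libraries. Most of them was AGR2, with means of 461 CPM under the knockout label and 679 CPM in wild type. CLCA1, too low to test, had 6, 2 and 5 counts under the knockout label and 0, 1 and 1 in wild type. The part of these markers in the differences below was not tested. In such bulk samples fewer cells of a type and less RNA per cell cannot be told apart.

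The 10 genes were chosen with their values in these libraries known, so their differences are given as a description and not as a test. Of the 9 tested, 3 were higher and 5 lower at an edgeR adjusted p below 0.05, a threshold that 12.0% of all tested genes passed upwards and 12.4% downwards (24.3% in all). In 5 of the 10 all knockout-labelled libraries lay below all wild-type ones and in 2 all lay above, against 18.6% of tested genes in each direction and 37.2% in all. BGN, SDC2, VCAN and GPC4, 4 of the 9, also differed by at least 1 on the log2 scale, as did 6.10% of all tested genes. The median log2 fold change of the 9, knockout-labelled over wild type, was -0.31, beside 0.002 over all tested genes. The 5 lower genes were BGN, SDC1, SDC2, SDC4 and GPC4, and they passed under each of the 13 alternative settings. The calls of BGN are no test, since it reached the filter level on low counts only in wild type. The 3 higher ones were VCAN, GPC1 and HSPG2, and only VCAN passed without knockout-labelled library 2 or without wild-type library 1, when the count was 1.

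**Figure D1:**
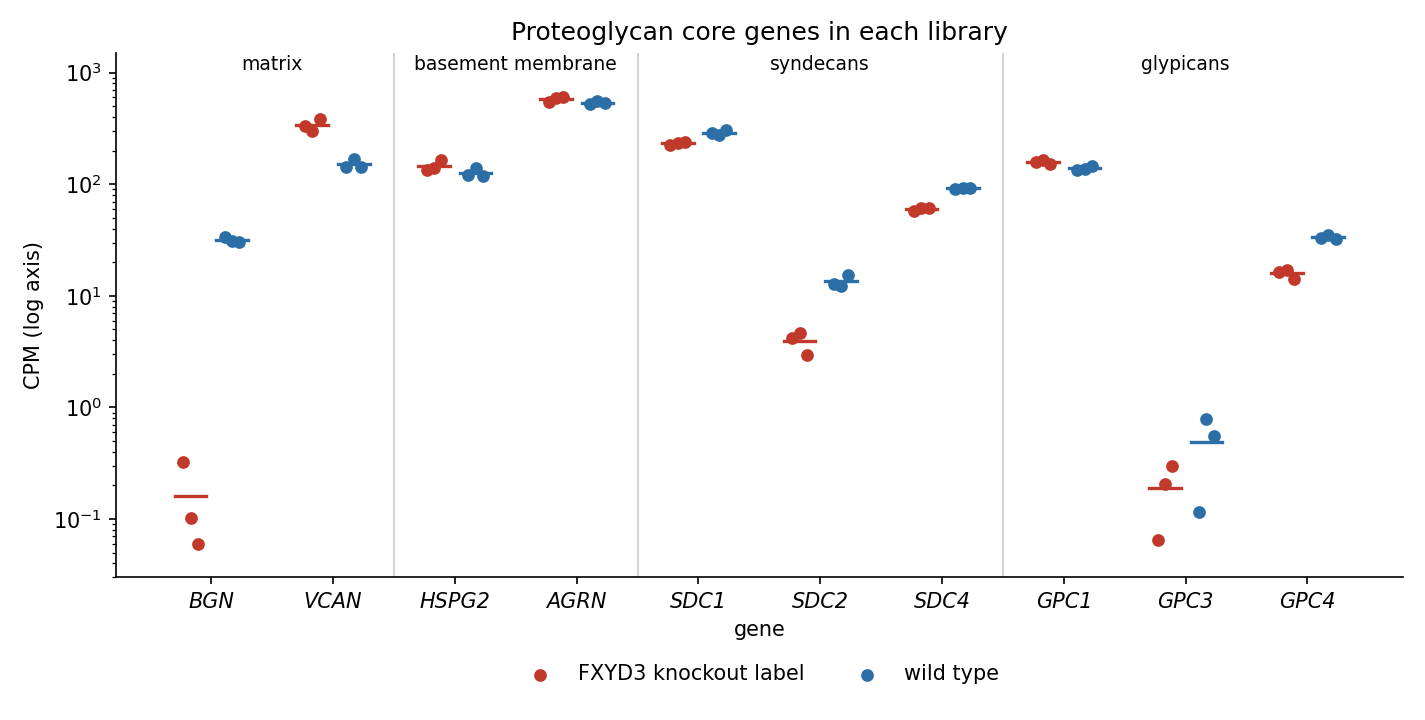
Level of each of the 10 genes in CPM, on a log axis, in the 3 libraries labelled FXYD3 knockout (red) and the 3 wild-type libraries (blue); points are libraries and short bars are group means. BGN has a mean of 0.161 CPM under the knockout label and 31.6 CPM in wild type, VCAN is the gene raised most, and AGRN, HSPG2 and GPC3 overlap between the groups.

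The sequences before the start sites of BGN, GPC4 and SDC4, 3 of the 5 lower genes, are shown as examples, 1 from the matrix, 1 glypican and 1 syndecan. They are from RefSeq (GRCh38.p14), read 5′ to 3′ on the strand of the gene, with bases inside a GENCODE 29 exon left off. The BGN stretch is chrX:153494730-153494938 on the plus strand, that of GPC4 is chrX:133415491-133415739 on the minus strand, and that of SDC4 is chr20:45348425-45348674 on the minus strand. Capitals mark the GC box, GGGCGG or its reverse complement CCGCCC.
BGN: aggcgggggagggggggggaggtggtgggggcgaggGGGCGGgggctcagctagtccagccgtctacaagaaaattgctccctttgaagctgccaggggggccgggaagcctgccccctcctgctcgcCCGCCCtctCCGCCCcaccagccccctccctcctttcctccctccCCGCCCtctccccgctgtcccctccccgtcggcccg
GPC4: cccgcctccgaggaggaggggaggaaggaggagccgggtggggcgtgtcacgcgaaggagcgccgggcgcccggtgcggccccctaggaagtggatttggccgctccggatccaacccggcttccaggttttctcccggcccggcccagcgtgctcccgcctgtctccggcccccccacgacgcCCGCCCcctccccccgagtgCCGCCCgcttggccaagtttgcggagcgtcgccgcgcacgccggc
SDC4: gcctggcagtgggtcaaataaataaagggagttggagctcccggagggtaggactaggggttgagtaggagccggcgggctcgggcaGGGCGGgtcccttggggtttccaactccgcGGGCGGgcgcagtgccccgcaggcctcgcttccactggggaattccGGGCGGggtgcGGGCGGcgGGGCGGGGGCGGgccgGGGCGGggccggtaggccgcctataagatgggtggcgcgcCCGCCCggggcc
The printed stretches hold 4 GC boxes for BGN, 2 for GPC4 and 8 for SDC4. In all, 7 of the 10 genes matched the table, with 8 windows because SDC1 has a pair of start sites. Over the 250 bases upstream of each start, every one of these 8 windows held at least 1 GC box on either strand, as did 42.6% of the 35116 windows in the table. The TATA box, TATAAA or its reverse complement, was in 0 of the 8 and in 10.7% of all. These whole windows keep bases inside annotated exons: all 250 for VCAN, 119 for 1 of the SDC1 windows, 41 for BGN and 1 for GPC4. GC content was 60.8% for VCAN and 66.4 to 84.0% for the other windows, against a median of 58.0% for all. The number of CG dinucleotides was 16 in the BGN window and 12 in that of VCAN, the lowest of the 8, and 21 to 36 in the others, against a median of 11. The BGN window alone among the 8 held the core of a TCF/LEF site, CTTTGA or its reverse complement, which 11.2% of all windows held; it did not overlap a GC box. A match of letters is a description and does not show that a factor binds there.

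BGN was nearly absent under the knockout label. The gene (ENSG00000182492; GRCh38 chromosome X, 153494939 to 153509554, plus strand) had 5, 2 and 1 counts in knockout-labelled libraries 1, 2 and 3, against 583, 547 and 491 counts in wild-type libraries 1, 2 and 3. In CPM these were 0.323, 0.102 and 0.0595 in the knockout-labelled libraries and 33.7, 30.7 and 30.4 in wild type. Every knockout-labelled library was far below every wild-type one, and the 3 wild-type libraries were close to each other. The summed counts, 8 under the knockout label and 1621 in wild type, correspond to a level 205-fold lower (95% exact interval 104 to 476, counting error only). The edgeR log2 fold change was -7.61 (SE 0.22), and it was -8.46 without knockout-labelled library 1. That SE understates the error at so few counts, and it was 0.53 in DESeq2 and 0.52 in limma voom. BGN passed the filter on low counts only through its wild-type libraries, so its call is no test of the difference.

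Biglycan is known mainly from connective tissue, so markers of fibroblasts are given beside it. Of 8 fibroblast markers 2 could be tested, COL1A2 and PDGFRA were at 0 in all libraries, and THY1 had 1 count in wild type and none under the knockout label. The summed level of the list was 6.48 to 8.27 CPM in the knockout-labelled libraries and 1.33 to 2.11 CPM in wild type. Its largest part was COL3A1, a fibrillar collagen gene, with 5.61, 6.08 and 5.17 CPM in the knockout-labelled and 0.404, 0.224 and 0.31 CPM in the wild-type libraries. COL3A1 passed the filter on low counts only through its knockout-labelled libraries. PDGFRB, the other tested marker, had means of 1.22 CPM under the knockout label and 0.905 CPM in wild type and was not called. The higher sum thus rested mainly on COL3A1, and the part of these markers in the BGN difference was not tested. Of 5 endothelial markers 0 could be tested, and of 5 leukocyte markers CD14 alone, with sums of 0.194 to 0.595 and 0.297 to 0.516 CPM under the knockout label and 0.062 to 0.168 and 2.64 to 4.74 CPM in wild type. Most of the leukocyte sum was CD14, with means of 0.388 CPM under the knockout label and 3.7 CPM in wild type. CD14 passed the filter on low counts only through its wild-type libraries, and PTPRC, CD3E and MS4A1 were at 0 in all libraries.

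Other genes near BGN on chromosome X were examined for position, and they are named after their values were seen. Of 8 tested protein-coding genes within 200 kb, 5 were called lower and 1 higher, beside 12.4% lower and 12.0% higher of all tested genes. PNMA6E had 0.479 ± 0.201 CPM in the knockout-labelled and 13.3 ± 2.9 CPM in the wild-type libraries (SD, n = 3 each; log2 fold change -4.82, SE 0.26). ZFP92, a zinc finger gene, had 0.238 ± 0.0847 CPM under the knockout label and 4.13 ± 0.25 CPM in wild type (log2 fold change -4.11, SE 0.36). All 3 wild-type libraries but at most 1 knockout-labelled library reached the filter level for either gene, so these values are a description. Both lie on the side of BGN with lower coordinates, beyond TREX2 and HAUS7, which were near the floor in both groups and did not pass (log2 fold changes -1.09, SE 0.55, and -0.59, SE 0.37). PNMA6E belongs to a family with close copies, which makes its counts uncertain. HAUS7, which overlaps BGN on the opposite strand, had 48 counts in all knockout-labelled and 71 in all wild-type libraries. On the other side SLC6A8, a creatine transporter gene, was higher, at 76.8 ± 6.2 CPM against 43.0 ± 2.18 CPM in wild type (edgeR adjusted p = 1.27e-09). CCNQ, BCAP31 and ZNF275 were lower by less, with log2 fold changes of -0.36, -0.19 and -0.50.

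**Figure D2:**
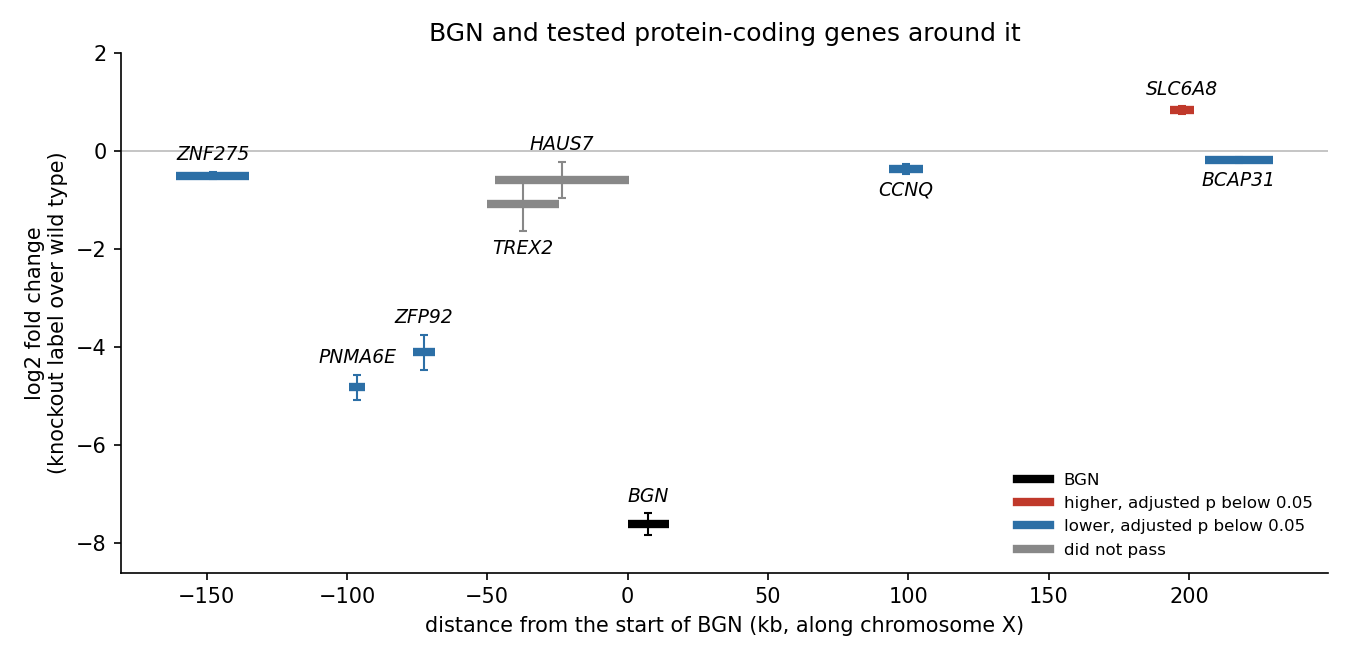
Log2 fold change, knockout label over wild type, of BGN (black) and of the 8 tested protein-coding genes within 200 kb of it, by distance from the start of BGN in kb; thick bars span each gene and thin bars are SEs. PNMA6E at -4.82 and ZFP92 at -4.11 are the lowest of the neighbours, and SLC6A8 at 0.84 is higher.

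VCAN moved the other way. The gene (ENSG00000038427; chromosome 5, 83471465 to 83582303, plus strand) had 332, 303 and 384 CPM in the knockout-labelled libraries and 142, 168 and 144 CPM in wild type. The lowest knockout-labelled library was well above the highest wild-type one, and the spread within the knockout label was the wider, at 340 ± 41.1 CPM against 151 ± 14.2 CPM (SD, n = 3 each). The level was 2.25-fold higher (log2 fold change 1.17, SE 0.08). VCAN-AS1, on the opposite strand within the gene, had 44 counts under the knockout label and 12 in wild type, and the strand setting of the counting is not given, so its reads cannot be told from those of VCAN. XRCC4, the 1 other tested protein-coding gene within 200 kb, had a log2 fold change of 0.05 (SE 0.10).

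The basement membrane genes differed little. AGRN (ENSG00000188157; chromosome 1, 1020123 to 1056118, plus strand) had 545, 592 and 604 CPM in the knockout-labelled libraries and 521, 562 and 535 CPM in wild type. The groups overlapped, since knockout-labelled library 1 was below wild-type library 2, and the log2 fold change was 0.11 (SE 0.06). HSPG2 (ENSG00000142798; chromosome 1, 21822245 to 21937297, minus strand) had 135, 139 and 165 CPM under the knockout label and 121, 139 and 119 CPM in wild type. Knockout-labelled library 3 was the highest of the 6 and wild-type library 2 reached into the knockout-labelled range. The log2 fold change of HSPG2 was 0.21 (SE 0.08), and its call was lost without knockout-labelled library 2 (0.25) or 3 (0.12) and without wild-type library 1 (0.18) or 3 (0.17). Of the 5 tested protein-coding genes within 200 kb of HSPG2, WNT4, a Wnt ligand gene named after its values were seen, had 0.592 ± 0.343 CPM under the knockout label and 4.27 ± 0.942 CPM in wild type (log2 fold change -2.86, SE 0.33), where 1 knockout-labelled library and all 3 wild-type ones reached the filter level.

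Each of the 3 syndecan genes was lower under the knockout label, SDC2 by the most and SDC1 by the least. SDC1 (ENSG00000115884; chromosome 2, 20200797 to 20225433, minus strand), the main syndecan of epithelia, had 224, 236 and 240 CPM in the knockout-labelled libraries and 286, 276 and 305 CPM in wild type. The highest knockout-labelled value lay below the lowest wild-type one, with a log2 fold change of -0.31 (SE 0.06). SDC4 (ENSG00000124145; chromosome 20, 45325288 to 45348424, minus strand), a syndecan of focal adhesions, had 57.8, 61.7 and 61.7 CPM under the knockout label and 91.4, 92.3 and 93.4 CPM in wild type. Both groups were tight and far apart, with a log2 fold change of -0.61 (SE 0.06). SDC2 (ENSG00000169439; chromosome 8, 96493351 to 96611780, plus strand), better known from mesenchymal cells, had 4.19, 4.6 and 2.97 CPM in the knockout-labelled libraries, against 12.8, 12.2 and 15.4 CPM in wild type. The groups were again apart, and the level was 3.41-fold lower (log2 fold change -1.77, SE 0.16).

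Taken per kilobase of gene length (RPKM), the 4 syndecans, SDC3 included, summed to 102 ± 3.17 RPKM in the knockout-labelled and 134 ± 5.11 RPKM in the wild-type libraries (SD, n = 3 each). SDC1 made up 63.9 ± 0.373% of that sum under the knockout label and 60.0 ± 0.739% in wild type. SDC4 made up 22.7 ± 0.17% under the knockout label and 26.4 ± 0.826% in wild type. SDC2 made up 0.853 ± 0.193% under the knockout label and 2.21 ± 0.199% in wild type. SDC3, known mainly from neural tissue, was not among the 10 genes and was named after its values were seen. It had 90.2 ± 1.07 CPM under the knockout label and 108 ± 3.19 CPM in wild type (log2 fold change -0.27, SE 0.06, edgeR adjusted p = 0.00134).

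The glypicans went in different directions. GPC1 (ENSG00000063660; chromosome 2, 240435671 to 240468078, plus strand), the most abundant of them, had 159, 165 and 151 CPM in the knockout-labelled libraries and 133, 137 and 147 CPM in wild type. The groups did not overlap, but the gap between knockout-labelled library 3 and wild-type library 3 was small. The log2 fold change was 0.19 (SE 0.06), and the call was lost without knockout-labelled library 1 (0.19) or 2 (0.16) or wild-type library 1 (0.16). GPC4 (ENSG00000076716; chromosome X, 133300103 to 133415490, minus strand) had 16.3, 17.1 and 14.2 CPM under the knockout label and 33.1, 35.1 and 32.2 CPM in wild type. These groups were far apart, and the level was 2.11-fold lower (log2 fold change -1.07, SE 0.09). GPC3 (ENSG00000147257; chromosome X, 133535745 to 133985895, minus strand), the neighbour of GPC4 and an oncofetal antigen of liver cancer, had 1, 4 and 5 counts in the knockout-labelled and 2, 14 and 9 counts in the wild-type libraries. Those groups overlapped, and the summed counts, 10 and 25, gave a level 2.53-fold lower under the knockout label (95% exact interval 1.17 to 5.9, counting error only), with wild-type library 1 as low as the knockout-labelled ones. GPC3 was too low to test.

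GPC5, a glypican outside the 10 genes, was higher. It had 7.08 ± 1.27 CPM in the knockout-labelled and 0.157 ± 0.0367 CPM in the wild-type libraries (SD, n = 3 each), from 363 and 8 counts in all. The counts correspond to a level 44.8-fold higher (95% exact interval 22.5 to 105, counting error only). The log2 fold change of GPC5 was 5.44 (SE 0.34 in edgeR and 0.57 in DESeq2). GPC5 passed the filter on low counts only through its knockout-labelled libraries, so its call is no test of the difference. GPC6, next to it on chromosome 13 and named after its values were seen, had 0 counts in all 6 libraries. Per gene length the glypicans summed to 29.9 ± 1.4 RPKM under the knockout label and 28.5 ± 1.14 RPKM in wild type, and these sums overlapped between the groups. Within that sum GPC1 held 81.3 ± 1.25% under the knockout label and 74.6 ± 1.34% in wild type. GPC4 held 10.7 ± 0.512% under the knockout label and 23.7 ± 1.52% in wild type, and GPC5 held 6.69 ± 1.16% under the knockout label and 0.154 ± 0.0307% in wild type.

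**Figure D3:**
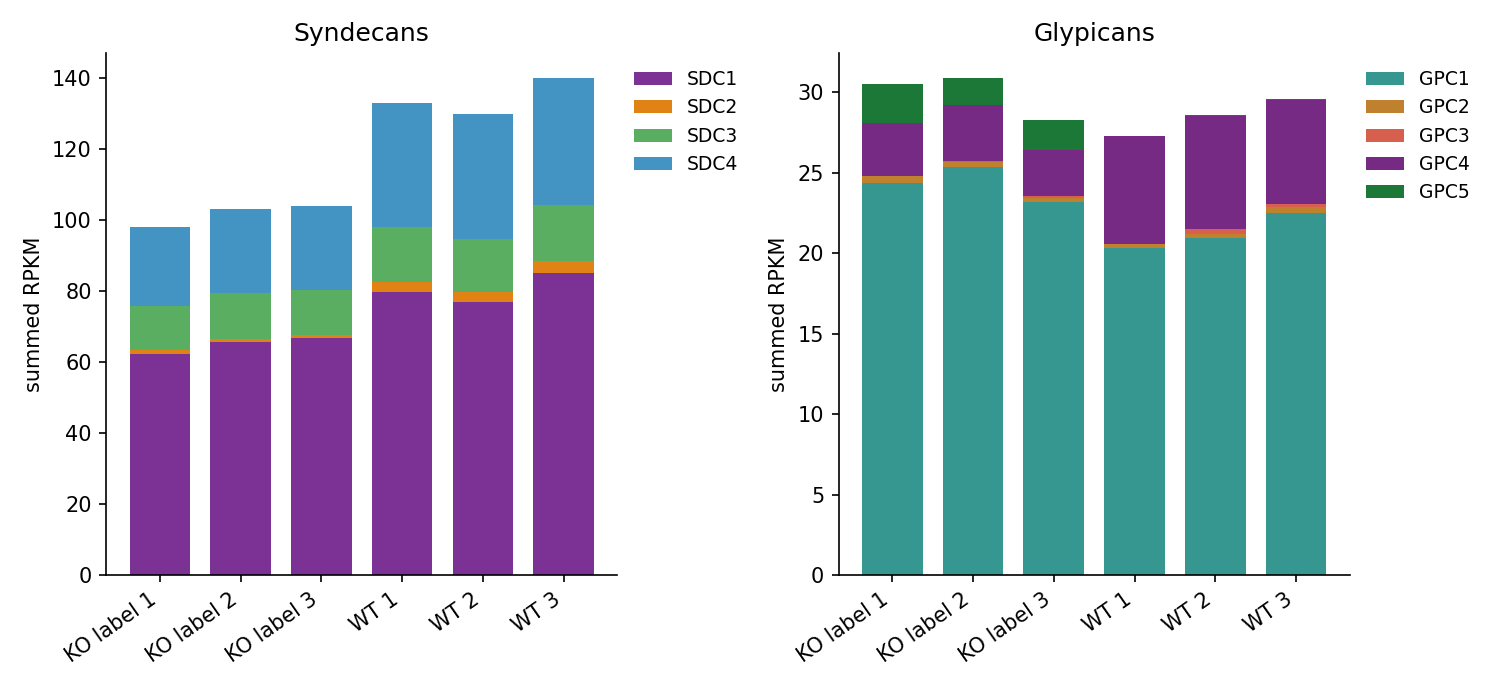
Summed RPKM of the syndecan genes (left panel) and the glypican genes (right panel) in each library, stacked by gene, with the 3 libraries labelled FXYD3 knockout left of the 3 wild-type ones. The syndecan sum averages 102 RPKM under the knockout label and 134 RPKM in wild type; the glypican sums are close, with less GPC4 and more GPC5 under the knockout label.

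Levels were ordered across the 10 genes only per gene length. In the knockout-labelled libraries the order was SDC1 (64.9 ± 2.27 RPKM), AGRN (53.9 ± 2.9), GPC1 (24.3 ± 1.07), SDC4 (23.1 ± 0.854), VCAN (22.9 ± 2.77), HSPG2 (8.08 ± 0.918), GPC4 (3.2 ± 0.298), SDC2 (0.864 ± 0.186), GPC3 (0.0696 ± 0.0432) and BGN (0.0658 ± 0.0576). There GPC1 and SDC4, SDC4 and VCAN, and GPC3 and BGN overlapped in their ranges over libraries. In wild type it was SDC1 (80.4 ± 4.02 RPKM), AGRN (50.1 ± 1.96), SDC4 (35.3 ± 0.384), GPC1 (21.3 ± 1.09), BGN (12.9 ± 0.733), VCAN (10.2 ± 0.96), HSPG2 (6.97 ± 0.604), GPC4 (6.74 ± 0.297), SDC2 (2.97 ± 0.384) and GPC3 (0.179 ± 0.126). There only HSPG2 and GPC4 overlapped among neighbours. BGN thus ranked 10 in the knockout-labelled order and 5 in wild type, while SDC1 and AGRN led both. The 10 genes summed to 201 ± 7.34 RPKM under the knockout label and 227 ± 4.29 RPKM in wild type, and VCAN held 11.4 ± 1.18% of the sum under the knockout label, against 4.49 ± 0.427% in wild type. The length used is the union of all annotated exons, which lowers the RPKM of genes with many long isoforms.

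**Figure D4:**
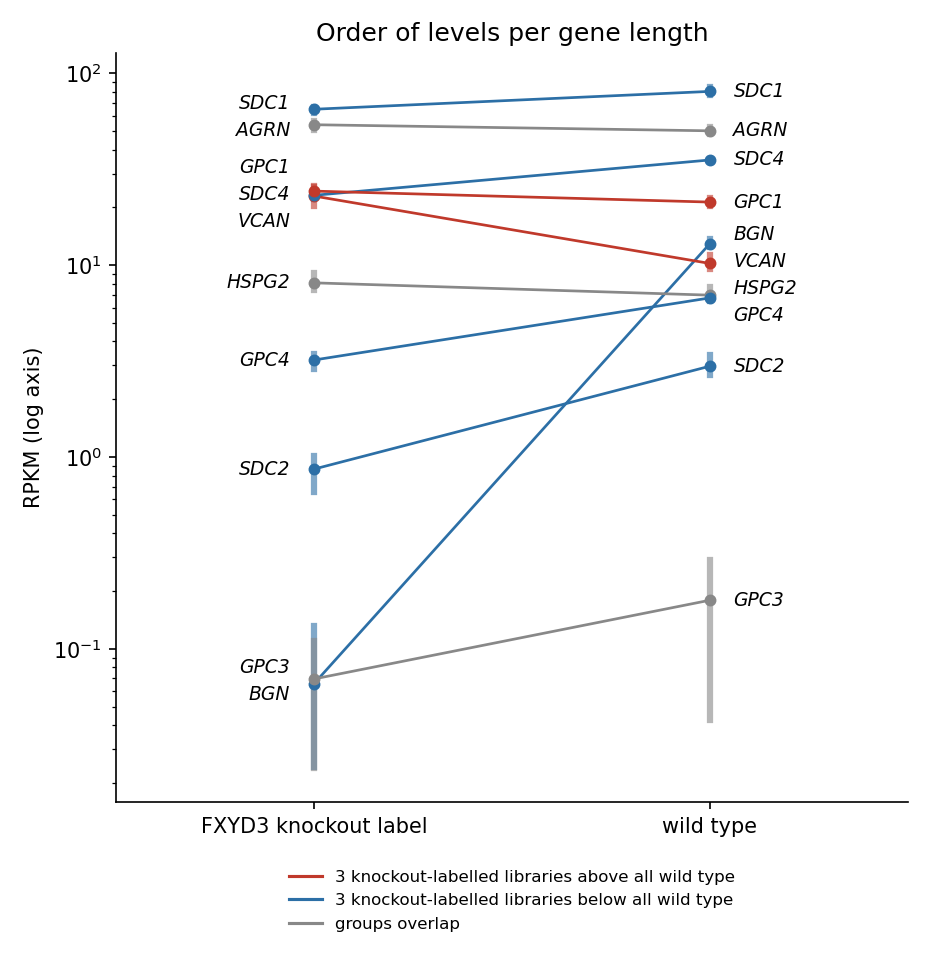
Mean RPKM of the 10 genes, on a log axis, in the knockout-labelled libraries (left) and in wild type (right), with vertical bars from the lowest to the highest library and lines that join a gene's means. SDC1 and AGRN lead on both sides, and BGN lies at 0.0658 RPKM on the left and 12.9 RPKM on the right.

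The wider proteoglycan pathway was read from lists of 156 other genes, grouped by function, of which 101 could be tested. In all, 18 were called higher and 26 lower (43.6%, beside 24.3% of all tested genes), with a median log2 fold change of -0.07 beside 0.002 over all tested genes. Among those called, GPC5, CHST13 and HAS2 passed the filter on low counts only through the group where they are high, so their calls are a description. The number called higher was 11 without knockout-labelled library 1 or without wild-type library 1.

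**Figure D5:**
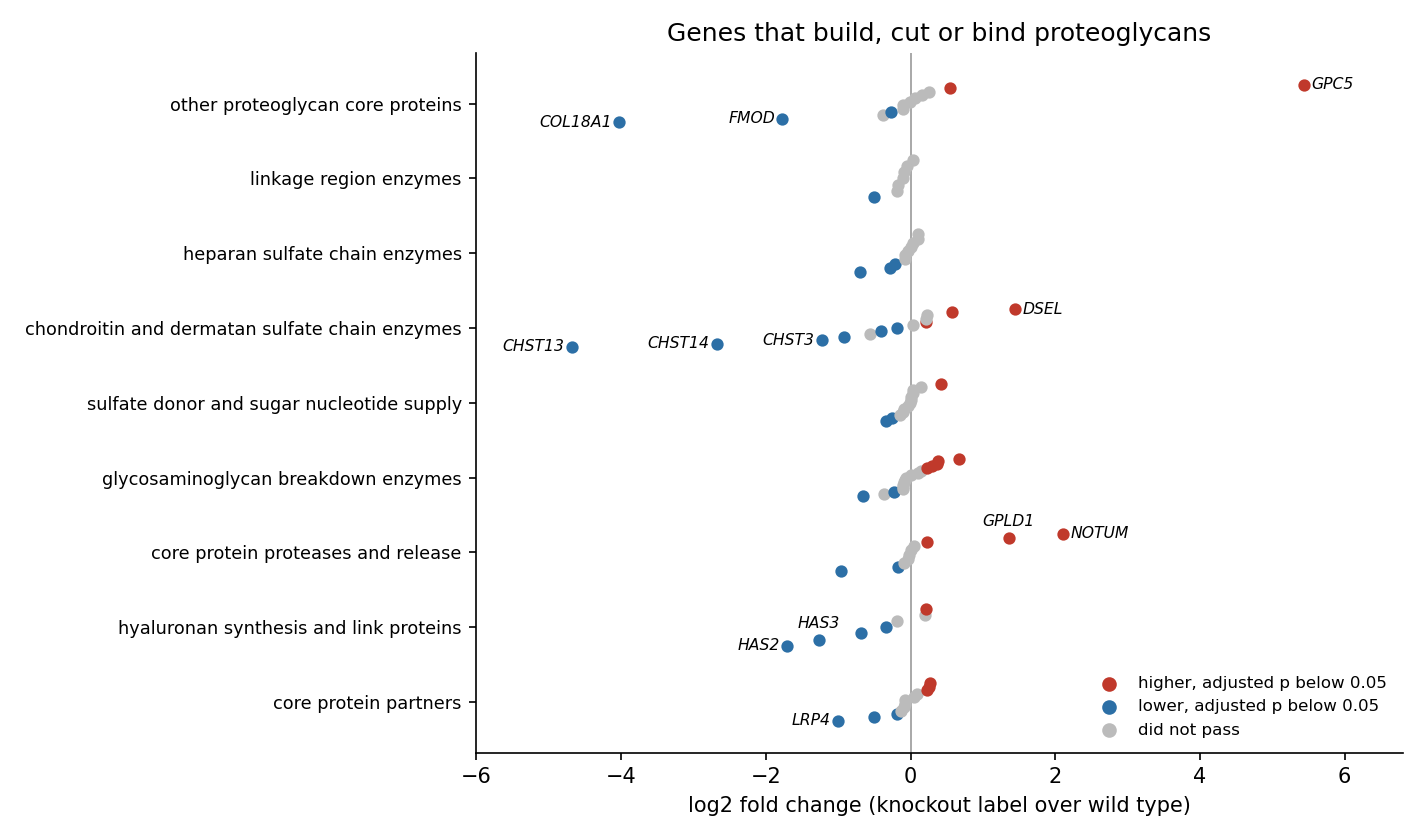
Log2 fold change, knockout label over wild type, of the 101 tested pathway genes by list; each point is a gene, red if called higher, blue if called lower and grey if it did not pass. Names are given where the value, to 2 decimals, is at least 1 in either direction, and 4 of the genes named are chondroitin and dermatan sulfate enzymes.

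Other core proteins came first. Of 34 listed, 12 were tested, and 2 were higher (GPC5 and CD44) and 3 lower (COL18A1, SDC3 and FMOD), 41.7% in all. Over all tested genes 24.3% were called, and the call of GPC5 is no test of its difference. The median log2 fold change of the 12 was -0.05. COL18A1, whose product collagen XVIII is a heparan sulfate proteoglycan of basement membranes, fell to 3.25 ± 0.198 CPM in the knockout-labelled libraries, against 53.4 ± 1.18 CPM in wild type (SD, n = 3 each; log2 fold change -4.03, SE 0.11, edgeR adjusted p = 1.79e-20). It overlaps SLC19A1 on the opposite strand, which had 2341 counts under the knockout label and 4212 in wild type. CD44, a hyaluronan receptor that can carry chains in some isoforms, rose to 462 ± 3.07 CPM, against 318 ± 20.1 CPM in wild type (log2 fold change 0.54, SE 0.06, edgeR adjusted p = 3.65e-08). FMOD, a small leucine-rich proteoglycan like biglycan, is named after its values were seen and was low in both groups, at 0.445 ± 0.443 CPM under the knockout label and 1.53 ± 0.365 CPM in wild type.

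Enzymes of the linkage sugar and of heparan sulfate moved little. Of 7 linkage enzymes tested, 1 was lower and 0 higher (14.3%, beside 24.3% of all tested genes), with a median of -0.10. The lower one was XYLT1, a xylosyltransferase that starts the chain, at 7.7 ± 0.91 CPM in the knockout-labelled and 11.0 ± 1.74 CPM in the wild-type libraries (log2 fold change -0.51, SE 0.14, edgeR adjusted p = 0.00829). Its call was lost without knockout-labelled library 3 (edgeR adjusted p = 0.0576) or wild-type library 1 (0.0924), and 2 enzymes were lower without wild-type library 3. XYLT2, the other xylosyltransferase gene and named after its values were seen, had a log2 fold change of -0.05 (SE 0.08). Per gene length it had 6.54 ± 0.427 RPKM in wild type, where XYLT1 had 0.998 ± 0.158 RPKM. Of 10 heparan sulfate enzymes tested, 3 were lower and 0 higher (30.0%), with a median of -0.06. These were the epimerase gene GLCE (log2 fold change -0.21, SE 0.06), the sulfotransferase gene NDST1 (-0.28, SE 0.09) and the extracellular sulfatase gene SULF2 (-0.70, SE 0.22), which overlaps NCOA3 on the opposite strand. None of the 3 passed without knockout-labelled library 2 (edgeR adjusted p = 0.0832, 0.0506 and 0.0766), and 1 passed without wild-type library 1 or without wild-type library 2. NDST1 also lost its call without knockout-labelled library 1 (edgeR adjusted p = 0.105). The polymerase genes EXT1 and EXT2, named after their values were seen, had log2 fold changes of 0.01 (SE 0.09) and -0.07 (SE 0.07).

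Chondroitin and dermatan sulfate enzymes differed more. Of 13 tested, 3 were higher and 6 lower (69.2%, beside 24.3% of all tested genes), with a median of -0.19. CHST13, a chondroitin 4-O-sulfotransferase gene, had 5 counts in all knockout-labelled libraries, against 136 in all wild-type ones, a level 27.5-fold lower (95% exact interval 11.5 to 86.2, counting error only). Its log2 fold change was -4.68 (SE 0.49 in edgeR and 0.76 in DESeq2), and -5.37 without knockout-labelled library 3. CHST13, among the 6 lower, passed the filter on low counts only through its wild-type libraries, so its call is no test of the difference. CHST14, which sulfates dermatan sulfate, fell to 0.965 ± 0.323 CPM, against 6.12 ± 0.804 CPM in wild type (SD, n = 3 each; log2 fold change -2.68, SE 0.26, edgeR adjusted p = 5.01e-09). UST, a uronyl 2-O-sulfotransferase gene, fell to 38.8 ± 2.01 CPM, against 73.4 ± 1.25 CPM in wild type (log2 fold change -0.92, SE 0.07, edgeR adjusted p = 7.66e-11). The other 3 lower were the 6-O-sulfotransferase gene CHST3 (-1.23, SE 0.13) and the chain polymerising genes CHPF (-0.19, SE 0.06) and CHPF2 (-0.41, SE 0.07). The 3 higher were the dermatan sulfate epimerase genes DSE (0.58, SE 0.15) and DSEL (1.45, SE 0.26) and the polymerase gene CHSY1 (0.21, SE 0.08), which are named, like CHST3, CHPF, CHPF2 and the sulfotransferase genes CHST11, CHST12 and CHST15, after their values were seen. CHST12 did not pass, at 0.23 (SE 0.12) on the log2 scale. CHST11 and CHST15 were too low to test: CHST11 had 29 counts under the knockout label and 5 in wild type, and CHST15 had 31 under the knockout label and 16 in wild type.

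Supply and breakdown genes had small differences. Of 13 genes that make or carry sugar nucleotides and the sulfate donor, 1 was higher and 2 lower (23.1%), with a median of -0.01. Over all tested genes 24.3% were called. UGDH, which makes UDP-glucuronic acid, fell to 124 ± 3.7 CPM, against 147 ± 5.9 CPM in wild type (SD, n = 3 each; log2 fold change -0.25, SE 0.06, edgeR adjusted p = 0.00156). SLC35D1, a Golgi and endoplasmic reticulum transporter of these sugars, rose by 0.42 (SE 0.08). Of 17 breakdown genes tested, 5 were higher and 2 lower (41.2%), with a median of -0.06. The lysosomal sulfamidase gene SGSH fell to 20.9 ± 1.51 CPM, against 32.8 ± 0.482 CPM in wild type, and the iduronidase gene IDUA rose to 20.2 ± 1.16 CPM, against 12.7 ± 1.18 CPM in wild type (SD, n = 3 each; edgeR adjusted p = 1.85e-06 and 2.35e-05). HPSE, the heparanase that cuts heparan sulfate outside the cell, rose by 0.38 on the log2 scale (SE 0.09). IDUA overlaps SLC26A1 on the opposite strand, which was also called higher, and SGSH overlaps SLC26A11 and CARD14. The number of breakdown genes called higher was 2 without knockout-labelled library 1 and 3 without wild-type library 1, and 1 was lower without knockout-labelled library 3 or wild-type library 3.

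Among 10 tested genes that cut or release core proteins, 3 were higher and 2 lower, with a median of -0.01. NOTUM, a secreted Wnt deacylase first studied in flies as an enzyme acting on glypicans, rose to 25.8 ± 2.61 CPM, against 6.02 ± 1.54 CPM in wild type (SD, n = 3 each; log2 fold change 2.11, SE 0.14, edgeR adjusted p = 1.87e-11). ADAMTS15, a protease that cuts versican, fell to 23.7 ± 1.6 CPM, against 46.3 ± 2.6 CPM in wild type (log2 fold change -0.96, SE 0.08, edgeR adjusted p = 5.9e-10). GPLD1, a phospholipase that cuts lipid anchors, had 1.43 ± 0.484 CPM under the knockout label and 0.541 ± 0.264 CPM in wild type. Its call was lost without knockout-labelled library 1 (edgeR adjusted p = 0.111) or 3 (0.0975) and without wild-type library 1 (0.123) or 3 (0.0736), and it overlaps ALDH5A1, which was called higher, on the opposite strand. The number of these genes called higher was 1 without knockout-labelled library 3 or wild-type library 1 or 3, and the number called lower was 1 without wild-type library 1 or 3 or any knockout-labelled one.

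Genes of hyaluronan, the chain that versican binds, were mostly lower. Of 7 tested, 4 were lower and 1 higher (71.4%, beside 24.3% of all tested genes), with a median of -0.34. The synthase gene HAS3 fell to 4.31 ± 0.74 CPM, against 10.3 ± 0.219 CPM in wild type (SD, n = 3 each; log2 fold change -1.27, SE 0.15, edgeR adjusted p = 3.59e-07). CEMIP, which takes part in breaking hyaluronan down, fell to 317 ± 12.6 CPM, against 399 ± 16.1 CPM in wild type. HAS2, among the 4 lower, passed the filter on low counts only through its wild-type libraries, so its call is no test of the difference. It was low in both groups, at 0.359 ± 0.147 CPM under the knockout label and 1.21 ± 0.425 CPM in wild type, and its call was lost without knockout-labelled library 1 (edgeR adjusted p = 0.054) or wild-type library 1 (0.0882). Without either of those libraries 2 of the list were lower, and the 1 higher, CEMIP2, also named after its values were seen, did not pass without either of them or without knockout-labelled library 3. HAS3 overlaps CHTF8, HAS2 overlaps HAS2-AS1 and CEMIP overlaps MESD, each on the opposite strand. CHTF8, called lower, had 4944 counts under the knockout label and 5689 in wild type. HAS2-AS1, too low to test, had 8 under the knockout label and 44 in wild type. MESD did not pass, with 4234 under the knockout label and 4605 in wild type. HAPLN1, the link protein gene beside VCAN and named in the same way, had 0 counts in all libraries.

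Partners of the core proteins went both ways. Of 12 tested, 3 were higher and 3 lower, with a median of -0.08. LRP4, a receptor for agrin, fell to 61.5 ± 5.21 CPM, against 123 ± 4.27 CPM in wild type (SD, n = 3 each; log2 fold change -1.0, SE 0.07, edgeR adjusted p = 4.6e-12). PRKCA, a protein kinase that binds the SDC4 tail, fell to 23.7 ± 0.765 CPM, against 33.7 ± 1.84 CPM in wild type, and CASK, a scaffold that binds syndecan tails, rose to 175 ± 3.29 CPM, against 150 ± 5.84 CPM in wild type (edgeR adjusted p = 3.78e-05 and 0.00301). Without wild-type library 3 the number called higher was 1. DAG1, the dystroglycan gene and another agrin partner, was named after its values were seen and had a log2 fold change of -0.08 (SE 0.06).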

How the data were processed

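The authors deposited raw read counts for each gene, with no scaling. The submitters' processing notes name HISAT2 2.0.5 and featureCounts 1.5.0-p3, and a mouse build, mm10, although all 58735 identifiers of named genes are human and lie in GENCODE release 29 with the same coordinates (GRCh38). Neither the strand setting nor the treatment of multi-mapping reads is given there. The table's gene length, deposited with the counts by the authors, equals the union of GENCODE exons for every gene checked, and RPKM was computed here from it. The 232 rows without a gene name, 0.13 to 0.25% of the counts, were left out.

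edgeR 4.0.16 in R 4.3.3 (quasi-likelihood, two-sided, TMM, filterByExpr with a minimum count of 10, robust, no covariate) compared 3 knockout-labelled with 3 wild-type libraries over 15351 genes, with Benjamini-Hochberg adjustment over all of them. An adjusted p under 0.05 made a call. Log2 fold changes come from that fit. The SE is the absolute log2 fold change divided by the square root of the F statistic of the quasi-likelihood test. It was smaller than the DESeq2 SE for BGN, GPC5 and CHST13, which have few counts in the lower group. It was also smaller for other genes, such as SDC2 (0.16 against 0.21) and HAS3 (0.15 against 0.21), though not for CEMIP (0.06 against 0.05). Exact intervals are conditional binomial (Clopper-Pearson) and cover counting error only, since PCR copies are not told from molecules. Alternatives were other scalings and filters, DESeq2 1.42.0, limma 3.58.1 voom, a block for replicate number, and fits that leave out each library. The fits were tested on simulated data. Python 3.11.15 made the tables and figures.

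The members and the lists were chosen with earlier results of these data known. Named besides the 10 genes and FXYD3 are up to 3 called genes of smallest p per list, or the most abundant where none was called; any others are said to be named after their values were seen. A gene that the rule names is not reported here.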

Additional observations from a re-analysis of the deposited data

How the results depend on the processing

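Over 13 alternative settings BGN, SDC1, SDC2, SDC4, GPC4 and VCAN kept their direction and stayed past the threshold, with log2 fold changes of -8.46 to -7.25, -0.34 to -0.27, -1.91 to -1.60, -0.63 to -0.58, -1.13 to -1.0 and 1.07 to 1.25. For BGN this is a description, since it reached the filter level on low counts only in wild type. AGRN stayed short of the threshold (0.08 to 0.15). None of the 35 genes recomputed under the alternatives (the tested ones of the 10, FXYD3 and those named by the rule) changed sign; genes named after their values were seen were not recomputed one by one. The 5 genes of the 10 called lower were 5 in each setting, and those called higher numbered 1 to 3 over the 6 fits that left out a library. Pathway genes called higher numbered 11 to 19 in those fits, and those called lower 18 to 25; DESeq2 called 11 higher. HSPG2 also lost its call under total-count scaling, the stricter filter on low counts and DESeq2 (0.24, 0.21 and 0.20). NDST1 lost its call under total-count scaling (edgeR adjusted p = 0.0535). SULF2 and GPLD1 lost theirs under DESeq2 (DESeq2 adjusted p = 0.0846 and 0.0899). Total-count scaling put the median of all tested genes at 0.027. Over all genes, calls ranged from 1318 to 2189 higher and from 1376 to 2401 lower.

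Labels give both groups the replicate numbers 1 to 3. Deviations from the group means of same-numbered libraries correlated at 0.023, -0.075 and -0.096, and not every library correlated best with its own number, so the numbers were not taken as pairs. With the replicate block the 10 genes had 1 called higher, HSPG2 and GPC1 losing their calls (0.21 and 0.19). Under it GLCE and GPLD1 lost theirs too, FXYD3 passed as higher (0.54), and 14 pathway genes were higher and 20 lower. FXYD3 also passed with no filter on low counts (0.52) and without wild-type library 2 (0.79). In the other 10 of the 13 settings it did not pass, as in DESeq2 (DESeq2 adjusted p = 0.19) and without knockout-labelled library 2 (edgeR adjusted p = 0.273). The causes were not tested. GPC3, at 35 counts in all, was below the filter on low counts, so no call was made for it. What size of difference could be seen at so few counts was not computed.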
